A study of Mus musculus with 2 samples.

Results

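Constitutive proteasome genes were examined in mouse CT26 colorectal cancer cells after exposure to low-dose DAC (decitabine). Members were taken by symbol from GENCODE release M21: all genes named Psma to Psmg followed by a number and at most 1 letter, without Psmb8, Psmb9, Psmb10, Psme1 and Psme2, the subunits and activators that interferon induces. The rule gave 44 annotated genes, of which 43 are among the 24223 genes of the count tables, and Psma8, a testis form of an alpha subunit, was not analysed here. Of the 43, 42 passed a minimum of 1 CPM (counts per 1e+06 of the scaled library) in at least 1 library. The exception was Psmb11, the thymus form of a beta subunit, with 2 counts in control cells and 0 after DAC. The series holds 1 library of CT26 cells given 1 μM DAC in 3 doses, 24 h apart, and collected after another 24 h in drug-free medium, and 1 library of cells cultured alongside without DAC. CT26 is an established colon carcinoma line of BALB/c origin, and no other line or clone was included. Since each group is 1 library, no difference below has a replicate check and no p-value is given.

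The proteasome is the protease that degrades ubiquitin-tagged proteins. Its barrel-shaped core is built from alpha subunits, which form the gated outer rings, and beta subunits, which form the inner rings and carry the active sites. A regulatory particle sits on the end of the core. The base of this particle holds a ring of ATPases that unfold the substrate, and its lid removes the ubiquitin chain. Dedicated chaperones assemble both particles, and other activators can take the place of the regulatory particle. Cells keep the subunits in balance partly through the transcription factor NRF1 (Nfe2l1), which is known to raise proteasome gene transcription when proteasome activity is low.

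The DAC library held 35163420 counts and the control library 34221886. Scaling used TMM factors from edgeR, 1.07 for DAC and 0.936 for control. Ratios of DAC to control are given with exact (Clopper-Pearson) 95% counting intervals in parentheses. The intervals cover counting error only and say nothing of differences between cultures. A gene is called lower here when its ratio is at most 0.8 and higher when it is at least the inverse of 0.8, with the interval on the same side of 1. A stricter call, named 2-fold, needs a ratio of at most 0.5 or at least 2. In a bulk library fewer cells with a transcript and less of it per cell cannot be told apart. The epithelial markers Cdh1 and Cdx2 had 0 and 4 counts in control cells and 9 and 22 after DAC, so these defining epithelial markers were at or near 0 in both. All 5 epithelial markers with counts were higher in the DAC library, Krt8 most, from 5 to 4445 counts, while the mesenchymal genes Vim and Fn1 went from 36138 to 48746 and from 210619 to 65467. The part of this shift in the ratios below was not tested.

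Most constitutive proteasome genes differed little between the libraries. Over the 42 members the median log2 ratio was -0.08, beside -0.02 over all 13545 genes past the CPM minimum. At 2-fold, 0 members were higher and 1, Psmc2, was lower, where 10.8% of all genes were higher and 5.29% lower. By the limit of 0.8 and its inverse, 3 members were called higher (Psma5, Psmd5 and Psmg4) and 7 lower (Psmb6, Psmc2, Psmc6, Psmd8, Psmd14, Psmd9 and Psme2b), which is 7.14% and 16.7% of the 42, where 28.1% of all genes were higher and 27.6% lower. Members are abundant transcripts, and abundant genes leaned toward lower values in the DAC library. Among 5166 genes of at least 50 CPM in either library, a limit chosen after seeing the data, the median log2 ratio was -0.175. Of these genes 16.0% were called higher and 37.0% lower. Of the 35 members in that range, 2 were called higher and 6 lower. The SD of the log2 ratio was 0.35 over the 42 members and 0.60 over those 5166 genes. Scaling by library totals moves every log2 ratio up by 0.19. Of the members, 14 changed sign under at least 1 of the alternative settings, and 0 of these 14 were among the 10 called. Called members lie too far from a ratio of 1 for a shift of 0.19 to change their sign, so this is no check of the calls. By library totals Psmb6 and Psmc6 lost their calls, and after GC centring Psmc6 and Psmg4 did. Psmc2 lost its 2-fold call under both.

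**Figure D1:**
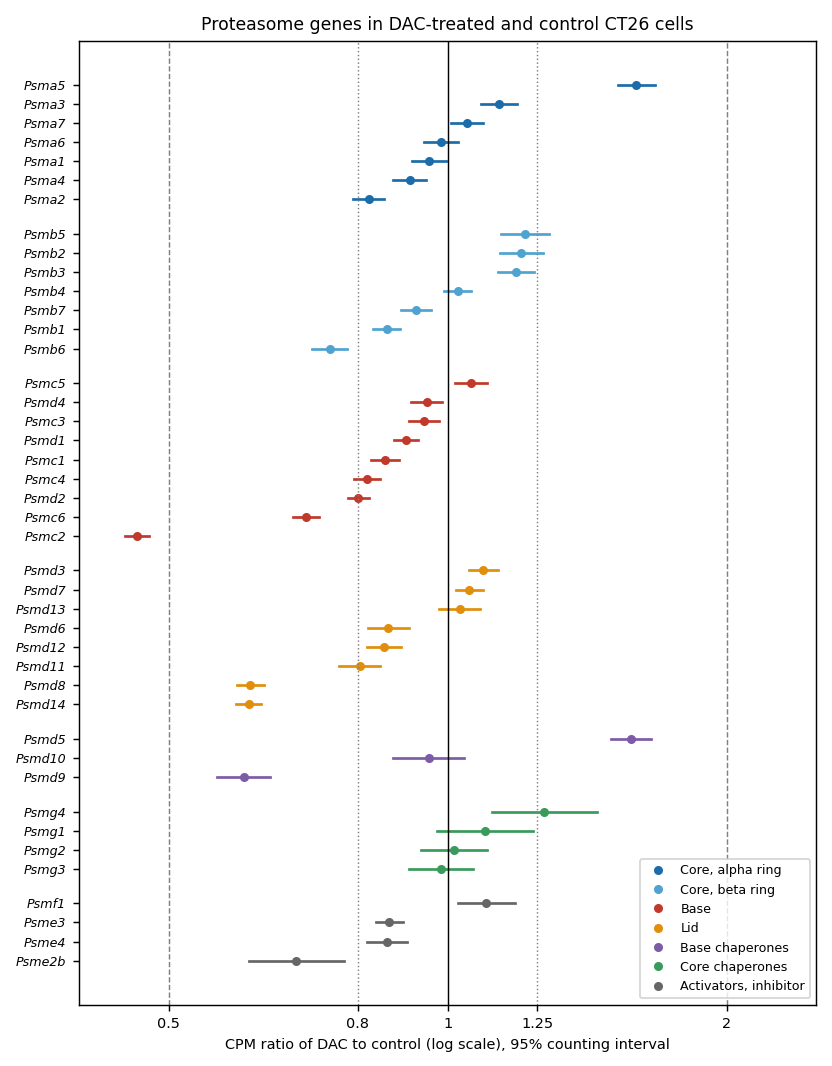
Ratio of CPM after DAC to CPM in control cells (horizontal axis, logarithmic) of the 42 proteasome genes past the CPM minimum, grouped by their place in the particle, as points with 95% counting intervals. Solid, dotted and dashed lines mark ratios of 1, of 0.8 and its inverse, and of 0.5 and 2, and Psmc2 lies farthest to the left at 0.463 while Psma5 lies farthest to the right at 1.6.

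In the alpha ring 1 of 7 subunits, Psma5, was called higher, beside 28.1% of all genes, and 0 were called lower. Psma5 was counted 2780 times in control cells and 5215 times after DAC, 86.8 and 139 CPM, a ratio of 1.6 (1.53 to 1.67). The gene spans bases 108256926 to 108279974 of chromosome 3 (GRCm38). The other 6 alpha subunits lay between 0.822 (Psma2) and 1.14 (Psma3), and Psma3 was called higher by library totals (log2 ratio 0.38) and after GC centring (0.48). Psma1, Psma4, Psma6 and Psma7 had ratios of 0.954, 0.91, 0.984 and 1.05. Of the 50-base stretches of the longest Psma5 transcript, 54.5% also occur in other genes, chiefly the pseudogene Gm8394, which had 28 and 85 counts of its own. The share was 22.0% for Psma3 and 25.6% for Psma4, so counts of these 3 genes may hold reads of their copies.

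In the beta ring, the 3 subunits with active sites had ratios from 0.746 to 1.21. Psmb6, the caspase-like subunit, was lower, with 4439 counts in control cells and 3886 after DAC, a ratio of 0.746 (0.714 to 0.779). Psmb5, the chymotrypsin-like subunit, had 1839 and 2615 counts and a ratio of 1.21 (1.14 to 1.29), and Psmb7, the trypsin-like subunit, had 5201 and 5644, a ratio of 0.925 (0.89 to 0.96). Of the 3, Psmb6 alone was called lower, beside 27.6% of all genes, and by library totals it was not (log2 ratio -0.23). Summed, the 3 genes reached 11479 in control and 12145 after DAC, with a ratio of 0.902 (0.879 to 0.925). The structural subunits Psmb2 and Psmb3 had ratios of 1.2 and 1.19, Psmb4 1.03 and Psmb1 0.859, and none was called, though by library totals Psmb2, Psmb3, Psmb5 and the alpha subunit Psma3 were called higher, at log2 ratios of 0.38 to 0.47. Psmb5 shares 57.1% of its 50-base stretches, mainly with the gene Gm3375, which had 1130 control and 1692 DAC counts, so its level is uncertain. Exons of Psmb7 overlap those of Nek6 on the opposite strand over 11.8% of their length, and the strand setting of the counting is not known.

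Of the 9 base genes 2, Psmc2 and Psmc6, were called lower, beside 27.6% of all genes. The median log2 ratio of the base lay -0.21 from that of all genes, but -0.051 from that of genes of at least 50 CPM. Psmc2 encodes an ATPase of the base ring and lies on chromosome 5 from 21785283 to 21803787. It was counted 12765 times in control cells, the most of any member, and 6928 times after DAC, or 399 and 184 CPM, a ratio of 0.463 (0.449 to 0.476). Only 4.02% of all measured genes had a lower ratio. By library totals or after centring on GC content its log2 ratio was -0.92 and -0.84 instead of -1.11, so it stayed called lower under both but not at 2-fold. Psmc6, another ATPase, was lower too, with 8008 and 6611 counts and a ratio of 0.704 (0.681 to 0.727). It was not called by library totals (log2 ratio -0.32) or after GC centring (-0.14).

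The other ATPases Psmc1, Psmc3, Psmc4 and Psmc5 had ratios of 0.855, 0.944, 0.818 and 1.06. Of the counts of all 6 ATPases, Psmc2 took 28.9% in control cells and 18.1% after DAC. The scaffold subunits Psmd1 and Psmd2 had ratios of 0.901 (0.874 to 0.929) and 0.801 (0.781 to 0.822), and the ubiquitin receptor Psmd4 had 0.95 (0.914 to 0.987). Psmd2, at 12264 and 11528 counts, lay just above the limit of 0.8, and after GC centring it and Psmc4 were called lower, at log2 ratios of -0.35 each. For Psmc1 and Psmd2, other genes hold 17.6% and 26.05% of the 50-base stretches.

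In the lid 2 of 8 genes were called lower, a share near the 27.6% of all genes, and the other 6 were not called. Psmd14, the metalloprotease that cuts the ubiquitin chain from the substrate, was counted 10037 times in control cells and 7182 times after DAC, 313 and 191 CPM, a ratio of 0.61 (0.592 to 0.629). It lies on chromosome 2 from 61711694 to 61800376. Psmd8, a structural lid subunit on chromosome 7 from 29174188 to 29180701, had 8293 and 5961 counts, a ratio of 0.613 (0.592 to 0.633). Both stayed called lower under every scaling and after GC centring, where Psmd14 had a log2 ratio of -0.44 and Psmd8 of -0.81 instead of -0.71 for each. The scaffold subunits Psmd11, Psmd12 and Psmd6 had ratios of 0.804, 0.853 and 0.863, and Psmd13, Psmd7 and Psmd3 had 1.03, 1.06 and 1.09. Psmd7, the inactive partner of Psmd14 in the deubiquitinating pair, was thus at 1.06 (1.02 to 1.09) beside 0.61 for Psmd14.

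Core, base and lid differed as sums. The 15 core genes had 59304 counts in control cells and 69455 after DAC, a ratio of 0.998 (0.987 to 1.01). The 9 base genes had 69658 and 64099, a ratio of 0.784 (0.776 to 0.793), and the 8 lid genes 42876 and 41100, a ratio of 0.817 (0.806 to 0.828). Median log2 ratios were 0.01 for the core, -0.23 for the base and -0.22 for the lid. The ratio of base to core counts within a library does not depend on scaling, and it was 1.17 (1.16 to 1.19) in control cells and 0.923 (0.913 to 0.933) after DAC. That of lid to core was 0.723 (0.714 to 0.732) and 0.592 (0.585 to 0.599).

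Single genes weighed on these sums. Without Psmc2, left out after its value was seen, the base had a ratio of 0.856 (0.846 to 0.866), and base to core was 0.959 in control cells and 0.823 after DAC. Without Psmd8 and Psmd14, left out for the same reason, the lid had a ratio of 0.971 (0.954 to 0.987), and lid to core was 0.414 and 0.403. As the genes left out had the lowest ratios of their parts, leaving them out could only raise the sums. Both lid genes called lower were left out, but Psmc6, also called lower, was kept in the base. Base and lid are therefore not compared on these values. Without the members that share at least 10% of their stretches with other genes, base to core was 1.17 and 0.968, and lid to core 0.986 and 0.862.

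Per length, the subunits of each part were spread over a several-fold range in both libraries. Levels were counts per base of merged exons, scaled to a sum of 1e+06 per library. TMM factors were not applied to them, so their changes between libraries are not on the scale of the ratios above. In the core they ran from 72 (Psma3) to 275 (Psmb4) in control cells and from 90.5 to 312, for the same genes, after DAC. In the base the lowest was Psmd1, at 93.8 and 93.4, and the highest were Psmc4 at 284 in control cells and Psmc5 at 311 after DAC. Psmc2 fell from 210, the base median of the control, to 107, the second lowest level in the base of the DAC library. In the lid the lowest was Psmd11, at 39.7 and 35.3, and Psmd14 led the control at 295, whereas Psmd7 led the DAC library at 259, with Psmd14 at 199. The coefficient of variation among base subunits was 31.4% in control cells and 39.0% after DAC, and among lid subunits 62.9% and 55.3%. These levels depend on annotated exon length, and with the longest transcript as length the base variation was 19.0% and 22.0%.

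**Figure D2:**
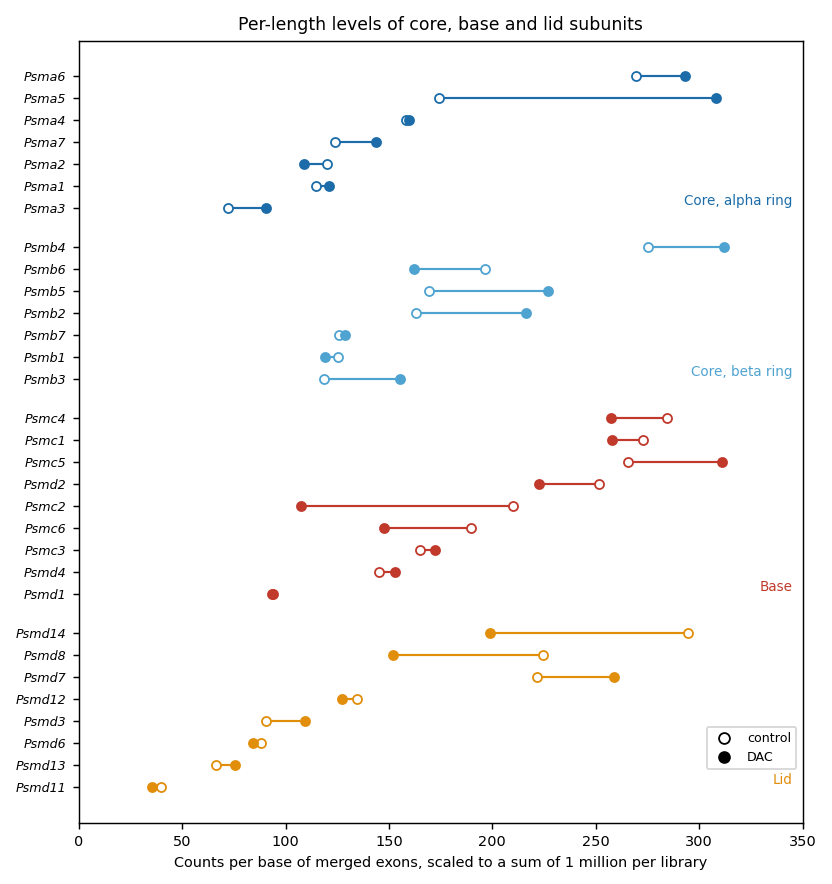
Per-length level (horizontal axis, counts per base of merged exons scaled to a sum of 1e+06 per library) of the 31 core, base and lid subunits past the CPM minimum, with the control library as open and the DAC library as filled points. The longest lines belong to Psma5, rising from 174 to 308, and to Psmc2, falling from 210 to 107, on a scale without TMM factors.

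Of the 3 assembly chaperones of the base, 1 was called higher and 1 lower, beside 28.1% and 27.6% of all genes. Psmd5, a chaperone that holds ATPases before the base is complete, was counted 2405 times in control cells and 4448 times after DAC, a ratio of 1.58 (1.5 to 1.66). Psmd9, a chaperone of another ATPase pair, had 2138 and 1511, a ratio of 0.602 (0.564 to 0.644). Psmd5 counts were thus 1.12 times (1.06 to 1.19) those of Psmd9 in control cells and 2.94 times (2.78 to 3.12) after DAC. Psmd10 (gankyrin), the other base chaperone, had 969 and 1085 counts, a ratio of 0.954 (0.874 to 1.04). Exons of Psmd9 overlap the opposite-strand gene Gm26745 over 25.5% of their length.

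Of the 4 chaperones that assemble the core, 1 was called higher, a share near the 28.1% of all genes. Psmg4 was counted 386 times in control cells and 576 times after DAC, a ratio of 1.27 (1.12 to 1.45), which was not called after GC centring (log2 ratio 0.15). Its partner Psmg3 had 0.984 (0.909 to 1.06), and the other pair, Psmg1 and Psmg2, had 1.1 (0.973 to 1.24) and 1.02 (0.937 to 1.1). By library totals Psmg1 was called higher too (log2 ratio 0.33).

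Among activators and inhibitors, Psme3 (PA28 gamma) and Psme4 (PA200), both nuclear activators, had ratios of 0.865 (0.837 to 0.894) and 0.86 (0.819 to 0.903), and Psmf1, the inhibitor PI31, had 1.1 (1.03 to 1.18). Psmf1 was called higher by library totals (log2 ratio 0.33). Psme2b was lower, with 633 and 510 counts and a ratio of 0.687 (0.61 to 0.773). It shares 69.3% of its stretches, chiefly with Psme2, whose 2416 and 4318 counts went the other way, so which gene its reads came from is uncertain. The 5 genes that the rule leaves out were higher: Psmb8, Psmb9 and Psmb10 by 10.8-fold, 5.9-fold and 5.86-fold, Psme1 by 2.27-fold and Psme2 by 1.52-fold. Per length of merged exons Psmb8 and Psmb10 reached 60.9 and 61.1 in the DAC library, beside 227 for Psmb5 and 129 for Psmb7, the constitutive subunits whose places they take, and Psmb9 reached 15.8 beside 162 for Psmb6. With the longest transcript as length, DAC levels were 86.8 for Psmb8 and 182 for Psmb5, and 63.9 for Psmb10 and 124 for Psmb7. Those of Psmb9 and Psmb6 were 16.1 and 252. The level of Psmb5 is uncertain because of its shared stretches.

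Other genes of the pathway were taken from a list chosen by function, with 37 genes in the tables and 36 past the CPM minimum. Of the 36, 4 were called higher and 15 lower, beside 28.1% and 27.6% of all genes. By library totals the counts were 7 and 9, where the median log2 ratio of all genes was 0.18 instead of -0.02. At 2-fold 0 were higher and 1 was lower, beside 10.8% and 5.29% of all genes. Their median log2 ratio was -0.21, where that of genes of at least 50 CPM was -0.175. Of those abundant genes 16.0% were called higher and 37.0% lower, and most genes of the list lie in that range. The gene of the list that was lower at 2-fold was Nfe2l1. It was counted 11823 times in control cells and 2653 times after DAC, a ratio of 0.191 (0.183 to 0.199), and none of its 50-base stretches occurs in another gene. Nfe2l1 lies on chromosome 11 from 96817414 to 96829968. Its log2 ratio was -2.39, and between -2.58 and -2.20 under the alternatives. NRF1 enters the nucleus only after it is deglycosylated by Ngly1 and cut by Ddi2, and these genes had ratios of 0.639 (0.569 to 0.716) and 0.703 (0.671 to 0.736), that of Ddi2 not called by library totals (log2 ratio -0.32). The related factor Nfe2l2 (NRF2) had 0.783 (0.759 to 0.808), with 8239 and 7568 counts, and was not called by library totals (log2 ratio -0.16) or after GC centring (-0.26), while Nfe2l3 had 6 and 5 counts. Which of the members NRF1 acts on in CT26 cells was not tested.

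Next lowest were Akirin2, which brings proteasomes into the nucleus, with 3171 and 1945 counts and a ratio of 0.523 (0.494 to 0.553), and the ubiquitin ligase gene Ubr4, with 23963 and 15607 counts and 0.555 (0.544 to 0.566). After GC centring Akirin2 had a log2 ratio of -0.84 and Ubr4 of -1.04, which is past 2-fold. The core maturation factor Pomp had 0.785 (0.752 to 0.82), and was not called by library totals (log2 ratio -0.16) or after GC centring (-0.28). Sem1, the smallest lid subunit, and Adrm1, a ubiquitin receptor of the base, which the symbol rule does not cover, had 0.875 (0.841 to 0.911) and 1.08 (1.03 to 1.13). Of the proteasome's ubiquitin proteases, Uchl5 had 0.6 (0.562 to 0.641) and Usp14 1.07 (1.02 to 1.12), though after GC centring Usp14 was called higher (log2 ratio 0.46). The scaffold gene Ecpas, which ties core and regulatory particle together, had 0.612 (0.591 to 0.634). Called higher were, among others, the shuttle gene Ubqln2, with 951 and 1601 counts and a ratio of 1.43 (1.32 to 1.56), and the proteasome-bound thioredoxin-like gene Txnl1, with 3684 and 5613 counts and a ratio of 1.3 (1.245 to 1.35).

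**Figure D3:**
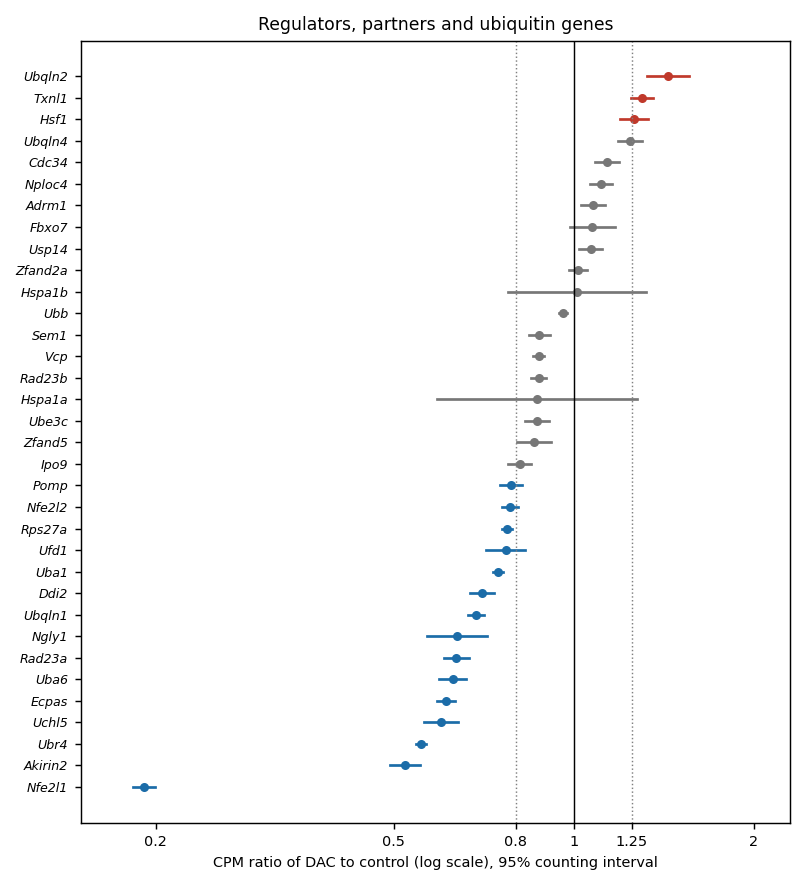
Ratio of CPM after DAC to CPM in control cells (horizontal axis, logarithmic) of 34 regulators, partners and ubiquitin genes of the pathway list, as points with 95% counting intervals, red where called higher and blue where called lower (dotted lines at 0.8 and its inverse). Nfe2l1 lies apart from the others at 0.191, and Akirin2, the next, lies at 0.523.

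**Figure D4:**
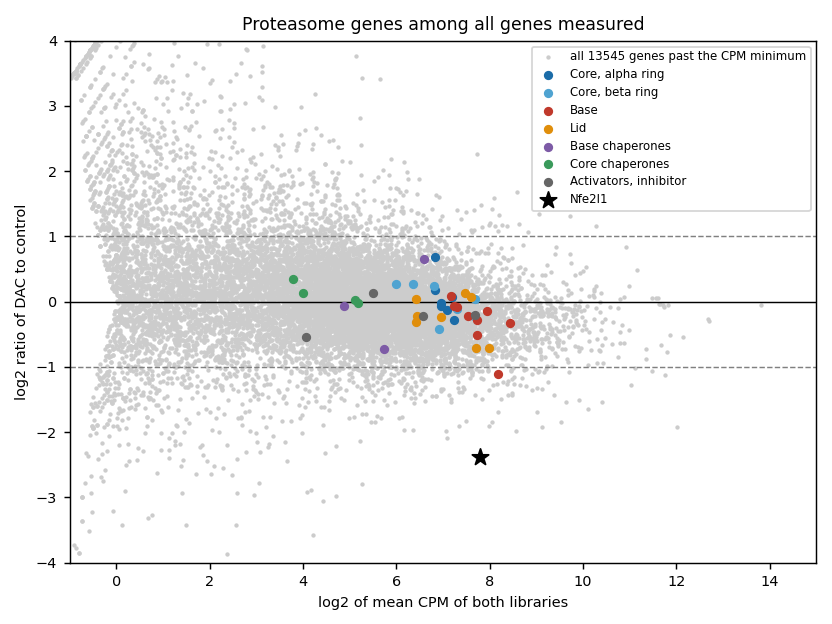
Log2 of the DAC to control ratio (vertical axis) against the log2 mean CPM of both libraries (horizontal axis) for 13545 genes (gray), with proteasome genes colored by part and Nfe2l1 as a star. The colored points lie within the band between the dashed 2-fold lines except Psmc2 at -1.11, Nfe2l1 lies at -2.39, and 185 genes beyond the vertical axis are not drawn.

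Promoter sequence was read from RefSeq (GRCm38.p6), which held the stretch from 250 bases before to 50 after a start for 36 of the 44 members. The middle of the antioxidant response element, the kind of site to which NRF1 and NRF2 bind, was searched as TGACNNNGC on both strands. It was present in 6 of the 36 genes, 16.7% (exact 95% interval 6.37% to 32.8%), beside 14.0% of all 27025 genes with a promoter in that set. The CCAAT box was present in 36.1% of members and 41.1% of all genes, and the GC box GGGCGG in 55.6% and 38.2%. The matches in these 6 members are shown 5′ to 3′ in the direction of the match. The 9 letters of the match are in capitals, with up to 10 bases on each side. Their share is near that of all genes, so a match does not mark a gene as bound by NRF1.

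Psmb5: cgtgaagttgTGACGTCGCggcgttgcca
Psmb6: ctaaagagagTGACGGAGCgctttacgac
Psmc6: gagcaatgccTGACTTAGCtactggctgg
Psmd12: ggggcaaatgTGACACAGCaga
Psmd9: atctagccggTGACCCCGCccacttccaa
Psme4: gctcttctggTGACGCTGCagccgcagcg

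The sites lie at chr14:54618024-54618052 (minus strand) for Psmb5, chr11:70525338-70525366 (plus) for Psmb6, chr14:45329587-45329615 (minus) for Psmc6, chr11:107479278-107479299 (minus) for Psmd12, chr5:123228149-123228177 (plus) for Psmd9 and chr11:30771758-30771786 (minus) for Psme4. Of these genes Psmb6, Psmc6 and Psmd9 were called lower, at 0.746, 0.704 and 0.602. Beside them, 27.6% of all genes and 37.0% of genes of at least 50 CPM were called lower. Psmd12, Psme4 and Psmb5 were not called, at 0.853, 0.86 and 1.21. By library totals Psmb6 and Psmc6 were not called (log2 ratios -0.23 and -0.32), nor was Psmc6 after GC centring (-0.14). Whether the motif went with the ratio was not tested. Neither Psmc2 nor Psmd14 nor Psmd8 held these letters in the window. A match is a description of the letters only, and binding was not measured.

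DAC acts on the methylation of cytosine in CpG pairs, and CpG pairs were frequent in member promoters. The median was 19.5 CpG pairs per 300 bases over 38 promoters of the 36 members, beside 7 over all 32851 promoters, with a range of 2 (Psme2b) to 41 (Psma7). The 250 bases before the start of the members with the highest and lowest ratios are shown with each CpG pair in capitals. Both members were picked by their ratios, and whether CpG content went with the ratio was not tested. Psma5 (chr3:108256676-108256925, plus strand) held 19 pairs and Psmc2, at the first of its annotated starts (chr5:21785025-21785274, plus strand), held 34. Methylation of these promoters was not analysed here.

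Psma5: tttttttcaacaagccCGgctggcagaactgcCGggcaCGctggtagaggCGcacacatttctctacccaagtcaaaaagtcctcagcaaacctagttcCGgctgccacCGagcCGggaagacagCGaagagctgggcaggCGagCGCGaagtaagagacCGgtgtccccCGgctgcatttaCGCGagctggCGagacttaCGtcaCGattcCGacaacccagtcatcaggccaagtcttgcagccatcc
Psmc2: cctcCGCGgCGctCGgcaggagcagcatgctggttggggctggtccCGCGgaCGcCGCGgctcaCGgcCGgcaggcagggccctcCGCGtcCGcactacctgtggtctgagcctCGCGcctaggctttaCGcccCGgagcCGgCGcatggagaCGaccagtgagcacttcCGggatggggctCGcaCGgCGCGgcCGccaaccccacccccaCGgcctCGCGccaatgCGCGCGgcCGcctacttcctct

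Across the 42 members the log2 ratio rose weakly with the GC content of the transcript (Pearson's r = 0.30, Spearman's rho = 0.30) and fell with the control CPM (r = -0.42, rho = -0.51). All points share the same 2 libraries, the control CPM is itself part of the ratio, and genes are not independent replicates. The part of GC content and of abundance in the values of single members was not tested.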

How the data were processed

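RNA-seq of 1 DAC and 1 control library of CT26 cells was analysed. Raw counts per Ensembl gene, not normalized, are the values the authors deposited. Tools listed in the submitters' processing notes are STAR 2.5.3a, Trim Galore, FastQC, Cufflinks, StringTie 1.3.1c and DESeq, with mm10 as build. The paper's methods describe poly-A selection (TruSeq) and FPKM values made with CASAVA, and name Bowtie and TopHat for reads across splice or fusion junctions. The counting tool, its strand setting and its treatment of reads with several matches are not given in the sources used here, so genes with near copies are uncertain.

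Symbols, coordinates and exon lengths came from GENCODE M21 (GRCm38, the assembly that mm10 names), which matched 24122 identifiers and left 101 unmatched. TMM factors came from edgeR 4.0.16 and size factors from DESeq2 1.42.0. Ratios and intervals were computed in Python 3.11.15 with numpy 2.4.6, scipy 1.17.1 and pandas 2.3.3, and the figures with matplotlib 3.10.9. A level of 1 CPM was worth 37.6 counts after DAC and 32.0 in control cells. The members, the lists and the limit of 0.8 were chosen with earlier results of these data known. All members and, of the pathway list, the 3 highest, the 3 lowest and Nfe2l1, Nfe2l2, Pomp, Adrm1 and Sem1 are named by rule, and some genes of the list are not reported here. Nfe2l3, Ngly1, Ddi2, Uchl5, Usp14, Ecpas, Uba1, Uba6, Ubb, Rps27a, Hspa1a, Hspa1b and the near copies are named outside it, after their values were seen. The ratio and call steps were tested on simulated data. Alternatives were other scalings, filters, GC centring over 20 bins, intervals from counts divided by 3, thinning of the deeper library, and leaving out members with shared sequence. A planned comparison of protein sequences was not made.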

Additional observations from a re-analysis of the deposited data

How the results depend on the processing

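No paired analysis was possible because each group holds 1 library, and for the same reason no replicate could be left out. Scaling by library totals moved some counts of calls and left others, among them those of the lid: the core then had 5 higher and 0 lower genes, the base 1 lower and all members 9 higher, no member passed 2-fold (0 in the base and 0 in all), the sums had ratios of 1.14 (core), 0.896 (base) and 0.933 (lid), and the pathway list had 7 higher and 9 lower. With DESeq2 size factors the sums were 1.01, 0.796 and 0.829. After GC centring the core had 2 higher genes, 0 members passed 2-fold, the pathway list had 2 lower at 2-fold, and the lid median lay -0.11 from that of all genes on the log2 scale instead of -0.20. Members were also set against genes of at least 50 CPM, a limit chosen after seeing the data. From the median of those genes, the medians of core, base and lid lay 0.18, -0.051 and -0.047 away. That of the 35 members in that range lay 0.039 away. Base and lid were then near the median of abundant genes and the core above it. Without members that share sequence, the core had 0 higher genes, the medians of core and base lay -0.049 and -0.13 from all genes, and their sums were 0.935 and 0.771. Chosen after seeing the data, the base without Psmc2 had a ratio of 0.856, the lid without Psmd8 and Psmd14 0.971 and the core without Psma5 0.969. With the longest transcript as length, the highest level was 4.15 and 4.61 times the lowest in the core (DAC and control), 2.01 and 1.76 times in the base and 4.89 and 6.33 times in the lid. The counts of calls were within 1.5 times with DESeq2 or upper-quartile factors, at a minimum of 5 CPM, without a filter, with intervals from counts divided by 3 and after thinning. Depth did not limit the members of the particle itself, which had at least 1839 counts in each library except Psmb11.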

Other observations

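Some near copies of proteasome genes carried counts of their own. Gm3375, which shares sequence with Psmb5, was counted 1130 times in control cells and 1692 times after DAC, a ratio of 1.28 (1.18 to 1.38), beside 1.21 for Psmb5. Gm13835, a copy of Psma3, had 363 and 475 counts, a ratio of 1.12 (0.971 to 1.28), beside 1.14 for Psma3. Gm8394, a copy of Psma5, had 28 and 85 counts, a ratio of 2.59 (1.67 to 4.12), beside 1.6. Gm9575, a copy of Psmc1, had 70 and 91 counts, a ratio of 1.11 (0.802 to 1.54), beside 0.855. How many of these counts came from the parent genes was not tested.

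Among ubiquitin genes, Rps27a, which encodes ubiquitin joined to a ribosomal protein, had a ratio of 0.773 (0.757 to 0.788), and Ubb had 0.958 (0.944 to 0.973). Both ubiquitin-activating enzymes were lower, Uba1 at 0.747 (0.733 to 0.761) and Uba6 at 0.627 (0.596 to 0.66), though Uba1 was not called by library totals (log2 ratio -0.23), nor Uba6 after GC centring (-0.31). The lower call of Rps27a was lost under both (log2 ratios -0.18 and -0.18). The heat-inducible genes Hspa1a and Hspa1b stayed at 57 and 107 counts in control cells and 58 and 127 after DAC.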
